A study of Mus musculus with 11 samples.

Results

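Within 1 exposure group, the 6 hippocampal RNA-seq libraries of mice exposed before birth to particulate matter (PM), the 3 deposited second (PM 4, PM 5 and PM 6) were compared with the 3 deposited first (PM 1, PM 2 and PM 3). They were chosen by treatment and replicate number in the sample titles and make up 6 of the 11 libraries of the series, the other 5 being vehicle controls given saline. Per the labels, mothers of every PM library received 200 µg/kg PM through the nose on pregnancy days 9, 12 and 15 and gave birth on day 21, and hippocampus was taken from the offspring at 14 to 18 weeks of age. The labels give the same tissue, dose, age range and library protocol for both sets, so no experimental factor named there separates them. They give no strain or sex, and do not say which offspring shared a mother or whether libraries came from separate animals, so the p-values rest on the spread among these libraries, and that spread may be technical. What differs in the labels is that library numbers restart in the second set and that a treatment protocol is written only there. Vehicle replicates 1 to 3 were deposited in the first set and 4 and 5 in the second.

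The hippocampus holds pyramidal neurons of fields CA1 to CA3, granule cells of the dentate gyrus, interneurons, glia and vessels, and lies beside the choroid plexus of the ventricles. Its transcripts also differ in where and how they are kept. Some long non-coding RNAs stay in the nucleus, while messenger RNAs for ribosomal proteins and respiratory chain subunits are short, abundant and mostly cytoplasmic. A few structural RNAs, such as those of RNase P and RNase MRP, carry no poly(A) tail.

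The libraries of the 2 sets were made up differently. Each first-set library had 15467673 to 17763893 counts in genes and each second-set library 10938521 to 12678165. The no-feature share, which is the part of all counts that fell in no annotated exon, averaged 20.4% ± 1.38 for PM 1 to PM 3 and 31.7% ± 2.33 for PM 4 to PM 6 (SD, n = 3 each), without overlap. Vehicle libraries of both sets lay at 60.9% to 61.99%. The 10 most abundant genes took 17.7% ± 2.67 of gene counts in PM 1 to PM 3 and 9.27% ± 2.25 in PM 4 to PM 6 (SD, n = 3 each). For these measures the two-sided exact permutation test gave p = 0.1, the smallest that 3 against 3 libraries allow (adjusted p = 0.133 over 8 library measures). PM 3 and PM 6 carried Xist, the RNA of the inactive X chromosome, at 209 and 917 CPM (the usual unit for counts scaled to a common library size), with at most 0.0721 CPM of each of the Y-linked genes Ddx3y, Eif2s3y, Kdm5d and Uty. The other 4 PM libraries had all 4 Y-linked genes at 9.88 CPM or more, and PM 1 also had 16.6 CPM of Xist. Each set thus held 1 library of the first kind, and the larger shifts of list counts without PM 3 and PM 6 are given. In vehicle, all libraries of the first set had the Y-linked genes and both of the second set had Xist instead.

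Between the PM sets, 3218 genes were higher in the second set and 3046 lower, out of 14674 tested (edgeR quasi-likelihood test, adjusted p under 0.05; every adjusted p below is from edgeR unless another tool is named). The background rates are therefore 21.9% higher and 20.8% lower, 42.7% in either direction, and each class below is read against them. Over 2-fold differences were uneven, with 1205 genes higher and 99 lower. The median log2 fold change of all tested genes was -0.03. For 53.9% of tested genes the 3 libraries of one set did not overlap those of the other. Scaled by total gene counts alone, the counts were 4367 higher and 1289 lower, and the median moved to 0.162. With a smooth trend on transcript length and GC content removed from each library, they were 2533 higher and 4016 lower. Without PM 2, 2425 genes were higher and 1767 lower, and without PM 3 and PM 6, 2402 and 1972. A log2 fold change is given throughout as second over first set, with its standard error (SE).

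The same test between the vehicle sets called 0 of 15713 genes (0%; edgeR joint fit of 11 libraries), with 557 at an unadjusted p under 0.05. That fit also left Xist (log2 fold change 9.83) and the 4 Y-linked genes (-12.31 to -12.10) uncalled at an adjusted p of 0.997, although the vehicle sets do not overlap in any of them, so its 0 does not show that the vehicle sets were alike. Fitted on the 5 vehicle libraries alone, the test called 3 genes higher and 7 lower. The difference between the set effect in PM and that in vehicle was tested in the joint fit. It was called for 2157 genes in the positive direction (13.7%) and 2694 in the negative (17.1%). In vehicle the sets also differed throughout in Xist and the Y-linked genes, so set and that difference cannot be told apart there. Of 6262 genes called between the PM sets and tested in that fit, 4346 (69.4%) also differed from vehicle, all in the same direction. Both tests use the same PM libraries, so this overlap and shared direction are in part built in and are no independent evidence. Leaving out vehicle replicate 5 lowered the counts to 1353 and 1448.

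Nuclear long non-coding RNAs had the largest share called higher among the classes described. Of 11 tested, 9 were higher in the second set and 1 was lower, with a median log2 fold change of 2.00 against -0.03 for all tested genes. Malat1, a nuclear RNA found at splicing speckles, was at 1700, 941 and 923 CPM in PM 1, PM 2 and PM 3 and at 6660, 7110 and 7800 CPM in PM 4, PM 5 and PM 6. Every library of the second set was thus above every library of the first. Its log2 fold change was 2.60 (SE 0.23, adjusted p = 8.867e-05). Vehicle libraries, scaled with all 11, held 20500 to 23200 CPM and did not differ between sets beyond their spread (log2 fold change -0.03, adjusted p = 0.998). Mirg, a long RNA that hosts microRNAs, rose from 9.19, 8.67 and 7.79 CPM to 29.6, 32.5 and 26.3 CPM (log2 fold change 1.78, SE 0.13, adjusted p = 4.848e-05). The member called lower, Pantr1, named after its values were seen, had overlapping libraries (48.0, 74.5 and 89.6 against 32.9, 51.4 and 42.6 CPM), and lost its call in several alternatives. With the trend removed, 9 members were called higher. The no-feature share was also higher in the second set, and its part in this class was not tested.

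**Figure D1:**
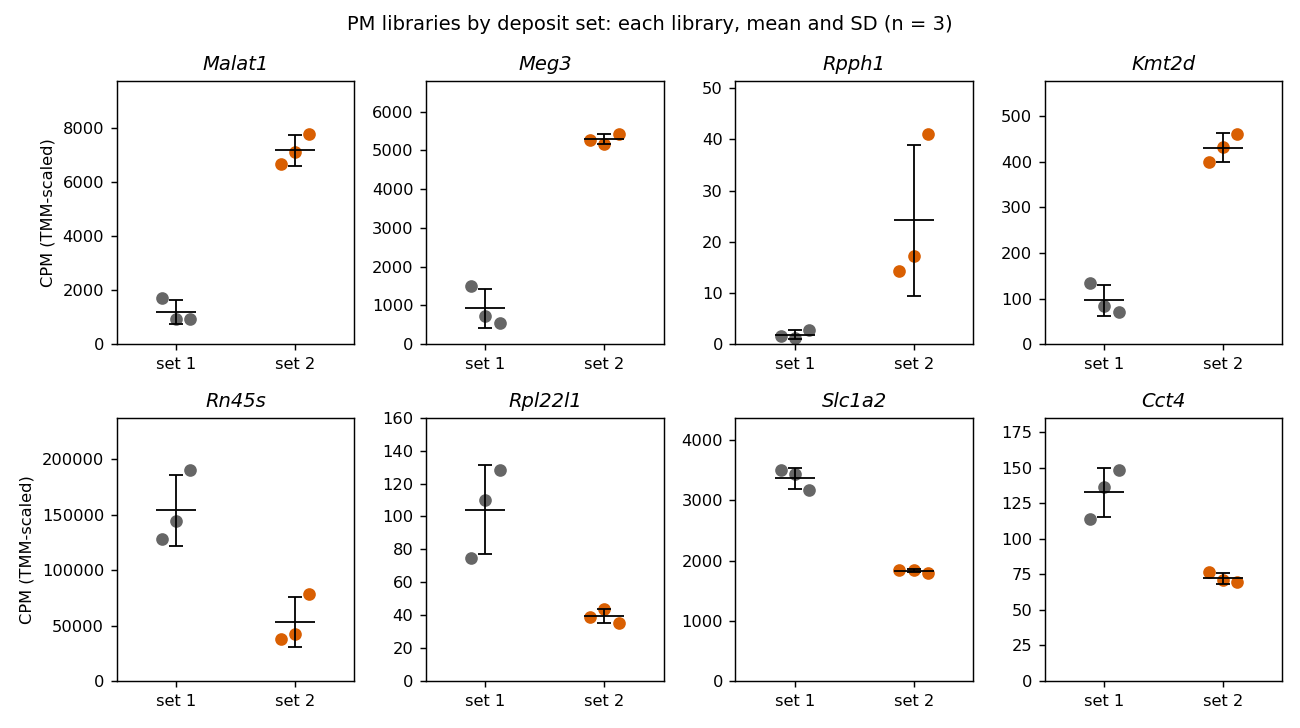
CPM in each PM library for 4 genes higher and 4 lower in the second set; points are libraries, horizontal lines the mean and bars the SD (n = 3). In all 8 panels the sets do not overlap, with Malat1 at 923 to 1700 CPM in the first set and 6660 to 7800 CPM in the second.

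Structural RNAs without a poly(A) tail split by kind. Rmrp, the RNA of RNase MRP, was at 0.423, 0.772 and 1.73 CPM in the first set and at 9.14, 13.3 and 23.4 CPM in the second (log2 fold change 4.00, SE 0.47, adjusted p = 0.0002868). Rpph1, the RNA of RNase P, which trims transfer RNA precursors, was at 1.57, 1.19 and 2.81 against 14.2, 17.3 and 41.1 CPM (log2 fold change 3.72, SE 0.49, adjusted p = 0.0007136). Vehicle libraries held both far above either PM set, at 602 to 865 CPM for Rmrp and 1200 to 1970 CPM for Rpph1. Rn45s, the ribosomal RNA precursor, went the other way, from 128000, 144000 and 190000 CPM down to 37400, 42500 and 78600 CPM (log2 fold change -1.54, SE 0.28, adjusted p = 0.00358). Its call was lost without PM 1 (adjusted p = 0.0593) and without PM 1 and PM 3, as was that of Rpph1 without PM 1 and PM 3 (adjusted p = 0.127). Replication-dependent histone genes, whose messenger RNAs mostly also end without a tail, had 9 tested of 68, of which 5 were lower and 0 higher (median -0.58). Without PM 3 and PM 6, 2 were lower, and without PM 1 and PM 3 the median was -0.28. In the joint fit, which tests 38, the median was -0.18. The longest annotated transcripts of the 9 had a median of 1560 bases, and whether they carried a tail was not tested. Hist3h2a was at 25.6, 24.3 and 28.2 against 18.9, 17.2 and 19.6 CPM (log2 fold change -0.49, SE 0.11, adjusted p = 0.006176). Its call was lost without PM 1 and PM 3 (adjusted p = 0.0767), and histone genes with near-identical copies are uncertain.

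Rows named for microRNA precursors also rose as a class. Of 1174 such rows only 27 had enough counts to be tested, and 15 of these were higher and 1 lower (median 1.62). Precursors are short hairpins from which mature microRNAs are cut, and reads over them in a library of long fragments can come from the host transcript, so the values are levels of the row, not of the mature microRNA. Of the 15 higher rows, 12 had a RefSeq hairpin and 11 of those lay inside an annotated gene on the same strand. Passing the filter on low counts was possible through the second set alone, so the 27 are not all precursors. By the rule for named genes, Mir3072 was at 0.363, 0.594 and 0.505 CPM against 2.36, 4.26 and 2.21 CPM (log2 fold change 2.58, SE 0.39, adjusted p = 0.0008027), and Mir7220 at 0.544, 0.416 and 0.144 against 2.21, 2.45 and 3.18 CPM (2.76, SE 0.41, adjusted p = 0.0007238). With the trend removed, 11 rows were higher and 5 lower, with 23 higher without PM 1 and 42 in the joint fit of 11 libraries, which tests more rows. Mir6236, named after its values were seen, was the row called lower, at 716, 636 and 1330 against 280, 338 and 465 CPM, and lost that call without PM 1.

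Of the microRNA rows, 4 that were called higher lie in 1 imprinted interval of chromosome 12 between Dlk1 and Dio3 (chr12:109452823-110281097, GRCm38), where the non-coding RNAs Meg3, Rian and Mirg and the retrotransposon-derived Rtl1 also lie; the interval was picked after the values were seen. It holds 10 tested rows, of which 8 were higher and 0 lower, against 21.9% and 20.8% of all tested genes. The 4 microRNA rows could pass the filter on low counts through the second set alone, so their calls are in part built in. Mir3070b was at 0.181, 0.0594 and 0.0721 CPM against 0.885, 0.793 and 1.06 CPM. Meg3 was at 1500, 740 and 544 CPM in the first set and 5270, 5170 and 5430 CPM in the second (log2 fold change 2.51, SE 0.34, adjusted p = 0.0009457). Rtl1, on the opposite strand, was at 1.27, 0.653 and 0.793 against 7.82, 7.36 and 9.89 CPM. Rian, a host of Mir341 and Mir1188 in its introns, moved far less, from 388, 401 and 366 to 489, 470 and 490 CPM (log2 fold change 0.33, SE 0.09), while the Mir341 row gave 3.06 (SE 0.73) and the Mir1188 row 2.38 (SE 0.50). Mir341 lost its call with the trend removed (adjusted p = 0.0606) and without PM 3 and PM 6 (0.0594), and Rian without PM 6 (0.0606), without PM 3 and PM 6 and without PM 1 and PM 3. Mir3072 lies in an exon of Mirg. Dlk1 and Dio3, the protein-coding ends of the interval, had overlapping sets and log2 fold changes of 0.41 and 0.23 (adjusted p = 0.646 and 0.790). The mature sequences of these 4 rows, from RefSeq on GRCm38.p6, are shown because the rows lie in 1 interval and were called higher. Capitals mark the seed, bases 2 to 8, and no seed is shared among them.
miR-341-5p: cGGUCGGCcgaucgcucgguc
miR-341-3p: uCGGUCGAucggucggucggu
miR-1188-5p: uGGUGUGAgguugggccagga
miR-1188-3p: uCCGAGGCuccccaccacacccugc
miR-3070-5p (Mir3070b): aGCCCCUGaccuugaaccuggga
miR-3070-2-3p (Mir3070b): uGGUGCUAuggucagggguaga
miR-3072-5p: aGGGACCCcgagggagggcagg
miR-3072-3p: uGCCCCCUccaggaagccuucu

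Mir9-1 and Mir9-2 carry the same mature microRNA and were picked after their values were seen, for differing in them; the difference between the rows was not tested. miR-9 is a microRNA of the nervous system made from several loci. Mir9-1 (chr3:88215598-88215686, plus strand), in an intron of Gm3764, was at 0.181, 0.0594 and 0.0721 CPM against 0.959, 0.793 and 1.32 CPM (log2 fold change 3.16, SE 0.56, adjusted p = 0.001797), which in the first set is 1 to 3 counts a library. Mir9-2 (chr13:83738814-83738885, plus strand), in an exon of C130071C03Rik, was at 1.63, 2.14 and 1.73 against 0.885, 1.66 and 1.06 CPM, with overlapping sets (-0.60, SE 0.33, adjusted p = 0.166; past the threshold at -1.22 with the trend removed). In the hairpins below, capitals mark the mature arms, which are the same in both.
Mir9-1: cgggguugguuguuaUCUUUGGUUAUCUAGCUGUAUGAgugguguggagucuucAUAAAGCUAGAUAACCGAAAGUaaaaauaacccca
Mir9-2: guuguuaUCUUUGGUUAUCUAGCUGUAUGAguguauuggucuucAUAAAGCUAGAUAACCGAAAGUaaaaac

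Genes annotated as antisense, transcribed from the strand opposite another gene, had the most rows called higher among the annotated non-coding types. Of 540 such rows only 178 had enough counts to be tested, and 72 of these were higher and 5 lower (median log2 fold change 0.56). Passing the filter on low counts was possible through the second set alone, so the tested rows do not stand for all antisense genes. Of 153 rows named as opposite-strand transcripts 59 were tested, with the same limit, and 18 were higher and 4 lower. There were 28 higher without PM 1 and 34 in the joint fit. Ppp2r2cos had the largest rise of any named gene, from 0.363, 0.0594 and 0 CPM to 3.32, 2.09 and 4.24 CPM (log2 fold change 4.36, SE 0.63, adjusted p = 0.000615). With 6, 1 and 0 counts in the first set, its size is uncertain. It was 3.88 to 6.29 with any 1 library left out and 3.63 without PM 3 and PM 6. Prkag2os1 went from 1.03, 0.653 and 0.649 to 11.5, 11.8 and 7.68 CPM (3.71, SE 0.28, adjusted p = 5.112e-05). Nrg3os and Zfhx2os rose by 3.32 (SE 0.54) and 3.31 (SE 0.43) on the log2 scale. The genes these 18 rows are named for did not move with them as a group, with 8 called higher, 4 lower and 6 not past the threshold (median 0.11). Ppp2r2c itself was lower, at -0.56. Grin1os, opposite the NMDA receptor gene Grin1 and named after its values were seen, rose from 5.20, 2.20 and 2.02 to 20.9, 25.9 and 21.2 CPM (2.83, SE 0.30, adjusted p = 0.0001544). No source used here states whether counting used strand, so where a row overlaps its sense partner their reads cannot be told apart. Other rows with provisional names had the same limit, with 207 of 1236 Gm predicted genes and 686 of 1923 Rik clones tested. Of these, 60 Gm rows (29%) and 167 Rik rows (24.3%) were higher, against 21.9% of all tested genes. Lower were 12 (5.8%) and 78 (11.4%), against 20.8%.

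Collagen chains, the subunits of extracellular matrix fibres and basement membranes, had the largest share called higher among the protein-coding lists used here. This list was added after the data were seen. Of 39 tested chains, 25 were higher and 1 lower, with a median of 1.36. Col7a1, the chain of anchoring fibrils, was at 1.99, 0.891 and 0.938 CPM against 11.4, 11.9 and 12.4 CPM (log2 fold change 3.20, SE 0.27, adjusted p = 5.692e-05). Col16a1 was at 8.64, 7.48 and 6.20 against 23.9, 29.9 and 27.1 CPM (1.85, SE 0.15, adjusted p = 5.432e-05). In vehicle, Col7a1 was at 0.973 to 2.27 CPM and Col16a1 at 4.54 to 6.25 CPM, so the second PM set was above both its own first set and the controls. The exception was Col8a2, at 5.20, 2.02 and 8.66 against 1.03, 1.23 and 0.441 CPM (-2.50, SE 0.55, adjusted p = 0.005681), which lost its call without PM 1 and PM 3 (adjusted p = 0.149). With the trend removed, 21 chains were higher. Genes of meningeal fibroblasts, a cell type rich in fibrillar collagens, had 0 of 10 members called in the edgeR fit of the 6 PM libraries and 0 by DESeq2, with 2 lower at an unadjusted p under 0.05 and 2 called lower in the edgeR joint fit. Lum and Ogn of that list had log2 fold changes of -0.73 and -0.65 (adjusted p = 0.0881 and 0.0889), and in the joint fit adjusted p = 0.0198 and 0.0468.

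Lists of chromatin regulators, nuclear pore genes and ciliary dyneins each had a larger share called higher than all tested genes. Of 26 chromatin regulators tied to neurodevelopment, 14 were higher and 1 lower (median 0.46). Kmt2d, a histone H3 lysine methyltransferase, was at 135, 83.0 and 70.9 CPM against 398, 431 and 461 CPM (log2 fold change 2.16, SE 0.21, adjusted p = 0.0001266). Crebbp, a histone acetyltransferase, was at 46.5, 37.6 and 30.0 against 74.7, 84.0 and 82.5 CPM (1.08, SE 0.14, adjusted p = 0.0004337). Of 20 nucleoporins, a list added after the data were seen, 10 were higher and 1 lower, with Nup210 at 1.35 (SE 0.15) and Nup188 at 0.98 (SE 0.17), and 6 higher without PM 3 and PM 6. Of 11 axonemal dynein heavy chains, motors of moving cilia and also added later, 5 were higher and 0 lower. Dnah17 rose from 1.21, 0.653 and 1.15 to 5.46, 6.28 and 6.44 CPM, while of 10 ependymal and ciliary markers the edgeR fit of the 6 PM libraries called 0, and the edgeR joint fit and DESeq2 1 lower each, with 1 lower at an unadjusted p under 0.05. In that list Mia and Tekt1 were at -1.28 and -0.56 (adjusted p = 0.0779 and 0.234).

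Of the ion channel lists, voltage-gated sodium and calcium channels had calls in 1 direction and GABA-A receptors mostly in the other; the difference between the lists was not tested. The 12 tested alpha subunits of voltage-gated sodium and calcium channels had 7 members higher and 0 lower (median 0.72). Cacna1h, a T-type calcium channel, was at 91.8, 58.8 and 56.4 CPM against 197, 259 and 213 CPM (log2 fold change 1.69, SE 0.19, adjusted p = 0.0002137). Cacna1a, the P/Q-type channel of presynaptic terminals, was at 130, 94.7 and 80.6 against 259, 262 and 252 CPM (1.34, SE 0.16, adjusted p = 0.0002252). For GABA-A, 8 of the 12 subunits of the GABA-A receptor, the chloride channel of fast inhibition, were lower and 1 higher (median -0.49). Gabrg1 went from 23.0, 30.2 and 30.9 to 13.1, 11.1 and 13.9 CPM (-1.14, SE 0.15, adjusted p = 0.0003692). With the trend removed, 6 of the channel alpha subunits were higher and 5 of the GABA-A subunits lower, as were 5 when scaled by total counts or without PM 1 and PM 3. The AMPA receptor list had 3 of 12 higher and 0 lower (median 0.06), with 2 higher and 2 lower with the trend removed. The kainate list had 2 of 7 higher and 1 lower. Of 54 tested potassium channel genes, 7 were higher and 7 lower (median -0.12), with 3 higher and 18 lower with the trend removed. The median GC content of the tested transcripts was 50.6% for the sodium and calcium channel list and 42.1% for the GABA-A list.

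**Figure D2:**
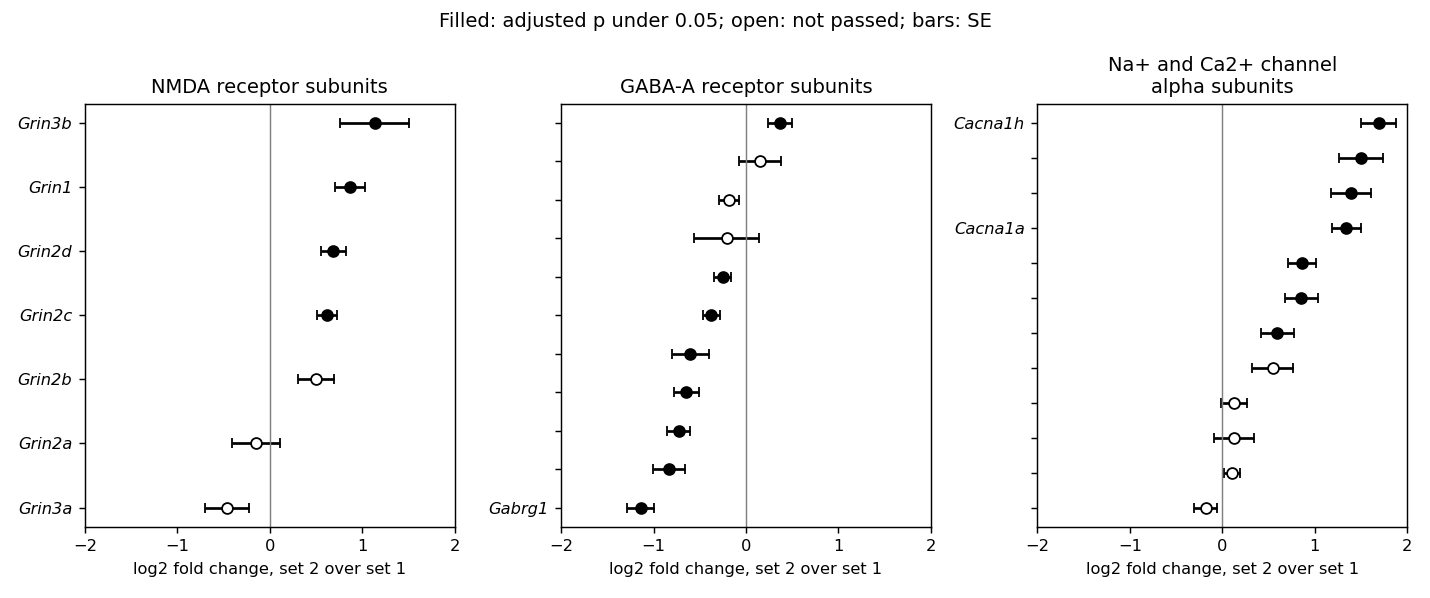
Log2 fold change of each NMDA receptor, GABA-A receptor and channel alpha subunit, second over first PM set, with its SE as a bar; filled points passed an adjusted p of 0.05. Names are given for the genes described in the text, and 1 GABA-A subunit is not shown. All 7 filled points of the sodium and calcium channels lie above 0, and all but 1 of the filled GABA-A points lie below 0.

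NMDA receptor subunits, the genes named in the series title, were called only in part between the PM sets, and differences among the subunits were not tested. Of 7, 4 were higher in the second set and 0 lower (median 0.62), and without PM 3 and PM 6 the count was 3 higher and 2 lower. Grin1, the obligatory GluN1 subunit, was at 230, 182 and 136 CPM in the first set and 324, 346 and 331 CPM in the second, and the sets did not overlap. Its log2 fold change was 0.87 (SE 0.16, adjusted p = 0.002677), and vehicle lay at 337 to 405 CPM. Grin2c rose by 0.62 (SE 0.11, adjusted p = 0.001751), from 58.3, 50.4 and 47.3 to 77.5, 88.7 and 74.0 CPM. Grin2d rose by 0.69 (SE 0.14, adjusted p = 0.003144) and Grin3b, at 0.534 to 1.33 CPM in the first set, by 1.13 (SE 0.37, adjusted p = 0.0316). Grin2a, the GluN2A subunit of mature synapses, was at 27.6, 21.3 and 14.4 against 15.1, 15.9 and 26.7 CPM, with full overlap (-0.15, SE 0.26, adjusted p = 0.677), but was called lower without PM 3 and PM 6 (-0.66, adjusted p = 0.0140). Both PM sets were below the vehicle range of 205 to 228 CPM for Grin2a. Grin2b was at 165, 105 and 98.7 against 164, 153 and 204 CPM (0.50, SE 0.19, adjusted p = 0.0619), and was called higher by DESeq2 (adjusted p = 0.0237), in the joint fit (0.0467), when scaled by total counts (0.0211), and without PM 1 or without PM 1 and PM 3. Grin3a was at 42.8, 37.1 and 27.0 against 23.9, 18.5 and 35.8 CPM (-0.46, SE 0.23, adjusted p = 0.141). The 4 called subunits had transcripts of 59.4% to 65.0% GC and the other 3 of 44.8% to 49.2%. With the trend removed, Grin2c, Grin2d and Grin3b lost their calls (adjusted p = 0.249, 0.224 and 0.166), Grin1 kept its own, and Grin3a was called lower at -0.60, as it was without PM 6 (-0.75) and without PM 3 and PM 6 (-0.92). Grin3b also lost its call without any 1 of PM 2 to PM 6.

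GC content moved with the difference across all genes. In 5 equal groups of genes by the GC content of their longest annotated transcript, the median log2 fold change went from -0.31 in the group of lowest GC to 0.27 in the highest. The share called higher went from 9.57% to 39.1%, and the share called lower from 41.4% to 5.66%. Across 14569 genes the Spearman rho between GC content and log2 fold change was 0.382, and for the vehicle sets it was -0.182 across 15560 genes. Genes are not independent replicates, and all share the same libraries. By transcript length the medians lay between -0.10 and 0.01, and by the genomic span of the gene between -0.05 and 0.00. The part of GC content in the class differences was not tested, beyond the counts given with the trend removed.

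**Figure D3:**
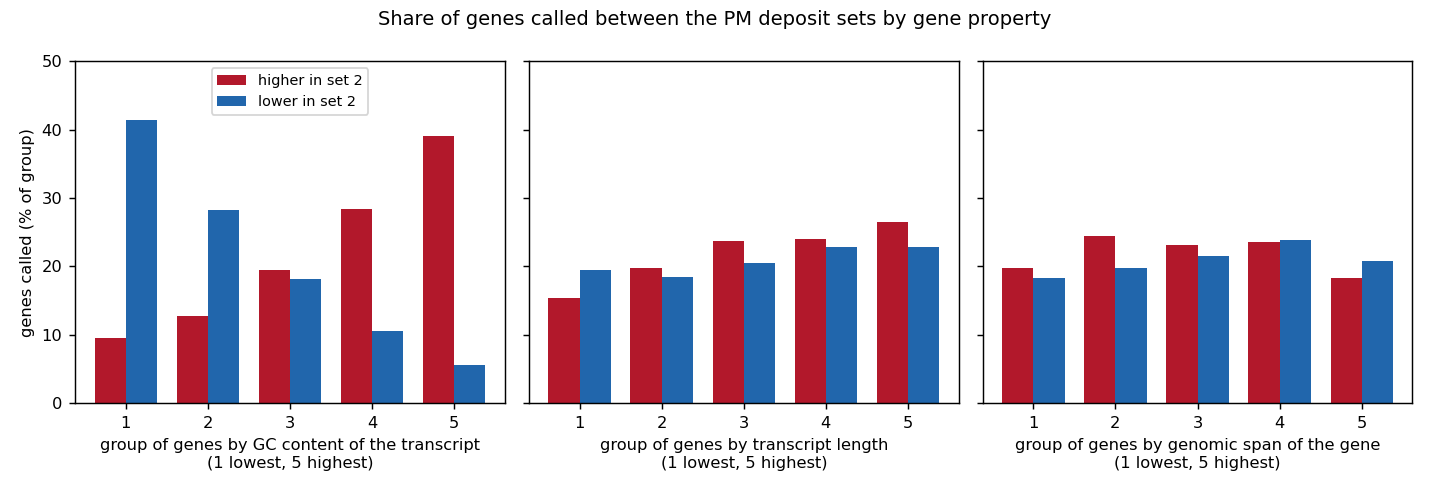
Share of genes called higher (red) or lower (blue) in the second PM set, in 5 equal groups by GC content, transcript length and genomic span. The GC panel crosses from 41.4% lower in group 1 to 39.1% higher in group 5, while the other panels change far less.

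Genes of protein synthesis were mostly lower in the second set, by a count that depended on the libraries used. Of 77 tested cytosolic ribosomal protein genes, 58 were lower and 0 higher (median -0.61). Their summed level was 17170, 23720 and 30260 CPM for PM 1 to PM 3 and 15400, 16970 and 14580 CPM for PM 4 to PM 6, so PM 1 lay near the second set and PM 3 far above it. Rpl22l1, a paralog of a large-subunit protein, was at 74.6, 110 and 128 CPM against 38.9, 43.8 and 35.3 CPM (log2 fold change -1.40, SE 0.18, adjusted p = 0.0004169). Rps3, a small-subunit protein, was at 374, 535 and 641 against 273, 281 and 241 CPM (-0.96, SE 0.17, adjusted p = 0.002045). Vehicle had 102 to 152 CPM of Rps3, below both PM sets. The count of lower genes was 24 without PM 6, 34 without PM 2 or without PM 4, 37 without PM 3, 74 without PM 1, 15 without PM 3 and PM 6, and 31 when scaled by total counts. Ribosomal protein genes have many near-identical pseudogenes, so single members are uncertain.

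Other abundant housekeeping classes were lower too. Of 80 nuclear-encoded subunits of oxidative phosphorylation, which make ATP in mitochondria, 44 were lower and 2 higher (median -0.46). Sdha, a subunit of complex II, was at 415, 450 and 451 CPM against 301, 274 and 279 CPM (log2 fold change -0.62, SE 0.09, adjusted p = 0.000685), and Ndufa9, of complex I, had -0.65 (SE 0.10, adjusted p = 0.0006955). The list count was 28 without PM 6, 22 without PM 3 and PM 6, and 23 when scaled by total counts. Of 25 heat shock proteins and chaperonins, which fold other proteins, 19 were lower and 1 higher (median -0.53). Their lower count was 17 to 19 with any 1 library left out, 16 without PM 3 and PM 6, and 13 when scaled by total counts. Cct4 was at 114, 136 and 148 against 76.5, 70.6 and 69.5 CPM (-0.88, SE 0.11, adjusted p = 0.0003356), and Hspa5, the chaperone of the endoplasmic reticulum, at 234, 251 and 234 against 156, 141 and 153 CPM (-0.67, SE 0.09, adjusted p = 0.000474). Of 37 proteasome subunits, 21 were lower and 3 higher, among them Psmb7 at -0.72 (SE 0.13) and Psma5 at -0.73 (SE 0.13). The proteasome count fell to 12 without PM 2 or without PM 6, and to 9 when scaled by total counts or without PM 3 and PM 6.

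Of 61 translation initiation and elongation factors, 28 were lower and 6 higher. Eif5a2 was at 54.9, 63.4 and 64.3 CPM against 32.1, 23.9 and 29.7 CPM (log2 fold change -1.09, SE 0.13, adjusted p = 0.0002002), whereas Eif4ebp3, a repressor of cap-dependent translation, rose from 3.63, 4.16 and 3.61 to 12.4, 13.6 and 10.1 CPM (1.66, SE 0.17, adjusted p = 0.0001318). The factor count was 15 without PM 2, 17 without PM 5 or without PM 6, 15 without PM 3 and PM 6, and 12 when scaled by total counts. Of 77 mitochondrial ribosomal protein genes, 25 were lower and 4 higher, with Mrps14 at -0.67 (SE 0.14) and Mrpl38 at 0.44 (SE 0.09), a call lost with the trend removed (adjusted p = 0.186). That count was 43 without PM 1, 8 to 13 without any 1 of PM 2 to PM 6, 46 in the joint fit, 5 without PM 3 and PM 6, and 7 when scaled by total counts. Glycolytic enzymes had 5 of 15 lower and 0 higher, including Pgk1 at -0.66 (SE 0.12), with 10 with the trend removed, 2 when scaled by total counts, without PM 2 or without PM 3 and PM 6, and 3 without PM 3 or without PM 6. Genes of the NRF2 response to oxidative stress had 7 of 19 lower and 0 higher. Slc7a11, the cystine transporter, was at 39.3, 44.8 and 53.7 against 23.5, 24.4 and 24.5 CPM (-0.93, SE 0.12, adjusted p = 0.0004337), and Prdx1 had -0.80 (SE 0.19, adjusted p = 0.007393). The NRF2 count was 12 without PM 1 or in the joint fit, 3 without PM 3 and PM 6, 2 to 5 without any 1 of PM 2 to PM 6, and 2 when scaled by total counts. ADP-ribosylation factor-like genes, added after the data were seen, had 12 of 22 lower and 0 higher (Arl5a at -0.81, Arl1 at -0.61), with 5 without PM 2, 6 without PM 5, 8 without PM 4 or without PM 6 and 4 when scaled by total counts. Kelch-like genes, also added later, had 16 of 33 lower and 2 higher (Klhl9 at -0.75, Klhl17 at 1.84).

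**Figure D4:**
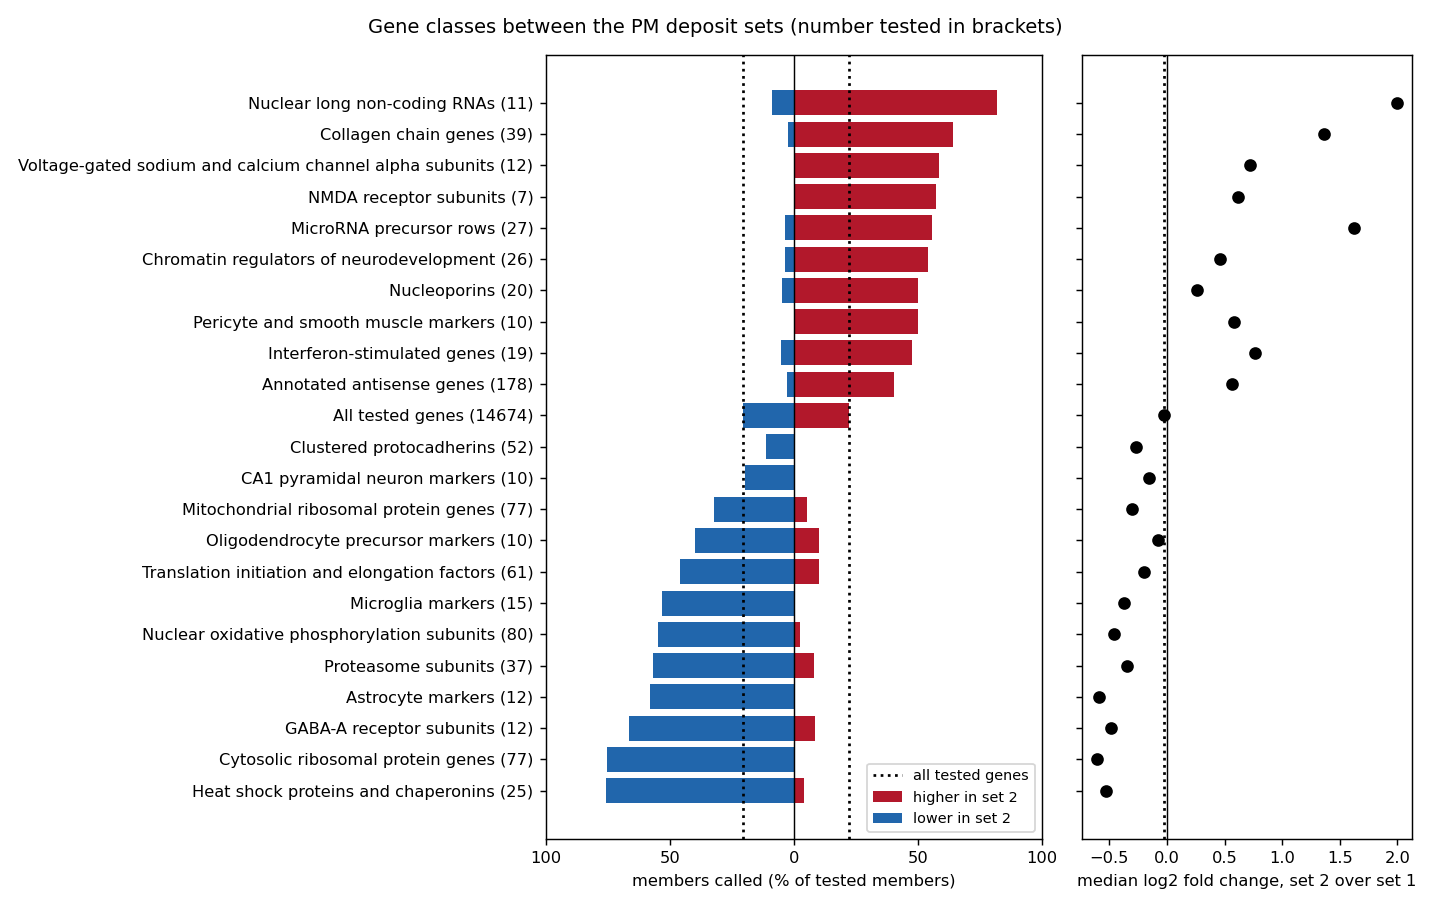
Left, the share of tested members called higher (red, to the right) or lower (blue, to the left) in the second PM set, with dotted lines at the shares of all tested genes, 21.9% and 20.8%. Right, the median log2 fold change of each class. The classes shown span from 2.00 for nuclear long non-coding RNAs to -0.61 for cytosolic ribosomal protein genes, and some classes in the text lie outside this span.

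Stress hormone and immune genes were mixed. Of 11 glucocorticoid response genes, 2 were higher and 4 lower. Nr3c1, the glucocorticoid receptor, was at 101, 116 and 102 CPM against 51.4, 58.1 and 68.8 CPM (log2 fold change -0.84, SE 0.12, adjusted p = 0.0005262), and Per1, a clock gene induced by the receptor, at 56.7, 56.7 and 42.9 against 94.2, 109 and 100.0 CPM (0.95, SE 0.12, adjusted p = 0.0003292). Of 14 endoplasmic reticulum stress genes, 5 were lower and 1 higher, with Manf at -0.44 (SE 0.10). When scaled by total counts 2 were lower and 3 higher and Manf was not called (adjusted p = 0.0634), and 2 were lower without PM 3 and PM 6. Among 18 immediate early genes 1 was higher and 5 lower, with 1 lower without PM 2 or without PM 5, 2 without PM 4, 3 without PM 1 and PM 3, 8 without PM 3 and PM 6 and 0 when scaled by total counts. The higher one, Npas4, which neuronal activity induces and which was named after its values were seen, was at 4.23, 4.34 and 3.68 against 10.9, 17.6 and 14.7 CPM (1.81, SE 0.20, adjusted p = 0.0001573). Interferon-stimulated genes, the antiviral response set, had 9 of 19 higher and 1 lower (median 0.76). Between the vehicle sets the median of this list was 0.33. The difference from vehicle was called for 3 of 20 members in the positive direction and 1 in the negative. Over all genes those shares were 13.7% and 17.1%. Stat2, the transcription factor that carries the interferon signal, was at 17.9, 15.8 and 17.0 against 41.2, 57.3 and 43.3 CPM (1.48, SE 0.14, adjusted p = 8.559e-05), and its partner Irf9 at 10.9, 8.37 and 8.01 against 15.1, 18.4 and 18.4 CPM (0.92, SE 0.16, adjusted p = 0.001478). The interferon count was 6 without PM 2 or without PM 5, and 5 without PM 1 and PM 3. Of 11 genes of class I antigen presentation, 5 were higher and 0 lower, including the peptide transporter genes Tap1 at 0.93 (SE 0.25) and Tap2 at 0.68 (SE 0.17), but edgeR called 0 without PM 2 or without PM 5, 3 without PM 1 or without PM 4, 2 without PM 1 and PM 3, and 1 higher and 1 lower with the trend removed. The difference from vehicle was not past the threshold for Tap1 or Tap2 (adjusted p = 0.247 and 0.581).

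Marker genes of cell types check what tissue each library holds, and in bulk RNA fewer cells of a type and less RNA per cell cannot be told apart. Astrocyte markers were lower in the second set in 7 of 12 cases and higher in 0 (median -0.59). Their summed level was 6567, 6951 and 6702 CPM for PM 1 to PM 3 and 4120, 4158 and 3932 CPM for PM 4 to PM 6, without overlap. Slc1a2, the main glutamate transporter of astrocytes, was at 3500, 3440 and 3170 against 1850, 1850 and 1800 CPM (log2 fold change -0.88, SE 0.08, adjusted p = 8.448e-05), and the water channel Aqp4 at 193, 220 and 228 against 112, 113 and 107 CPM (-0.95, SE 0.10, adjusted p = 0.0001266). The astrocyte count was 7 to 9 with any 1 library left out and 7 when scaled by total counts. Of 15 microglia markers, 8 were lower and 0 higher (median -0.37), with summed levels of 604 to 676 against 426 to 540 CPM. Fcrls was at 28.3, 32.0 and 28.2 against 14.3, 18.1 and 19.8 CPM (-0.77, SE 0.13, adjusted p = 0.001621). The microglia count was 14 in the joint fit, 4 without PM 6, 5 without PM 4, 3 without PM 3 and PM 6, 4 without PM 1 and PM 3, and 2 when scaled by total counts.

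Oligodendrocyte precursors, which give rise to myelinating cells, had 4 of 10 markers lower and 1 higher, with Gpr17 at -0.82 (SE 0.12) and Pdgfra at -0.61 (SE 0.11), and 2 lower without any 1 of PM 2 to PM 6, without PM 3 and PM 6 or when scaled by total counts. Myelin and oligodendrocyte genes had 1 of 15 lower, Ugt8a at -0.95 (SE 0.21), and 1 higher, Myrf at 0.67 (SE 0.14). Myrf was at 0.20 with the trend removed (adjusted p = 0.367), and Ugt8a was not called without PM 3 and PM 6 (adjusted p = 0.0628). Their summed level was 4580, 7878 and 10460 CPM for PM 1 to PM 3 and 6814, 6776 and 5479 CPM for PM 4 to PM 6, so PM 1 was lowest and PM 3 highest of all 6, and the count of lower genes was 9 without PM 1 and 5 without PM 1 and PM 3. Vessel markers had calls in the other direction. Endothelial markers had 4 of 12 higher and 0 lower, with Esam at 12.6, 10.5 and 11.4 against 18.2, 28.6 and 18.3 CPM (log2 fold change 0.92, SE 0.19, adjusted p = 0.003461) and Slc2a1, the glucose transporter of the blood-brain barrier, at 0.55 (SE 0.12), which was not called with the trend removed (adjusted p = 0.0804). The endothelial count was 8 without PM 1 and 2 without PM 2 or without PM 5. Pericyte and smooth muscle markers had 5 of 10 higher and 0 lower, with Pdgfrb at 0.79 (SE 0.14) and Anpep at 1.51 (SE 0.26), but 2 higher with the trend removed and 3 without PM 3 and PM 6, and their summed levels overlapped (179.5 to 225.3 against 212.7 to 337.7 CPM). In both vessel lists PM 5 held the most, with 510 and 338 CPM summed. Of 2 tested blood cell genes, Ptprc was at 0.39 (adjusted p = 0.207) and Alas2 at 0.20 (adjusted p = 0.745), with Alas2 called higher without PM 3 and PM 6 (1.13) and without PM 1 and PM 3 (1.38).

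Choroid plexus markers differed among the libraries of the first set. Of 10 tested, 5 were lower and 0 higher in the second set, with a median of -2.42. Their summed level was 1550, 204 and 3294 CPM in PM 1, PM 2 and PM 3 against 207, 175 and 132 CPM in the second set, so that PM 2 lay among the second set. Ttr, the thyroid hormone carrier that marks this tissue, named after its values were seen, was at 1140, 23.6 and 2420 CPM against 60.5, 35.9 and 13.8 CPM and did not pass in edgeR (adjusted p = 0.0997), but did in DESeq2 (0.001792) and without PM 2. Clic6 was at 12.0, 3.86 and 24.0 against 3.39, 2.31 and 2.38 CPM (log2 fold change -2.28, SE 0.60, adjusted p = 0.01565), Enpp2 at 291, 153 and 720 against 118, 111 and 89.9 CPM (-1.87, SE 0.57, adjusted p = 0.04416), and Folr1 at 6.10, 0.653 and 7.14 against 0.958, 0.0721 and 0.0883 CPM (-3.55, SE 1.0, adjusted p = 0.02225). Without PM 1 and PM 3, 1 marker was lower, without PM 2 all 12 of the list were, without any 1 of PM 3 to PM 6 2 or 3 were, and without PM 1 alone or without PM 3 and PM 6 edgeR called 0. DESeq2 called 8 lower and the joint fit 1. Clic6, Enpp2 and Folr1 each lost their calls in 6 to 8 alternatives. Of the vehicle libraries, replicate 5 had the highest summed level, 2274 CPM. The part of choroid plexus tissue in the other classes was not tested. Without PM 1 and PM 3, which leaves PM 2 alone in the first set, the median log2 fold change of all tested genes was 0.003.

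**Figure D5:**
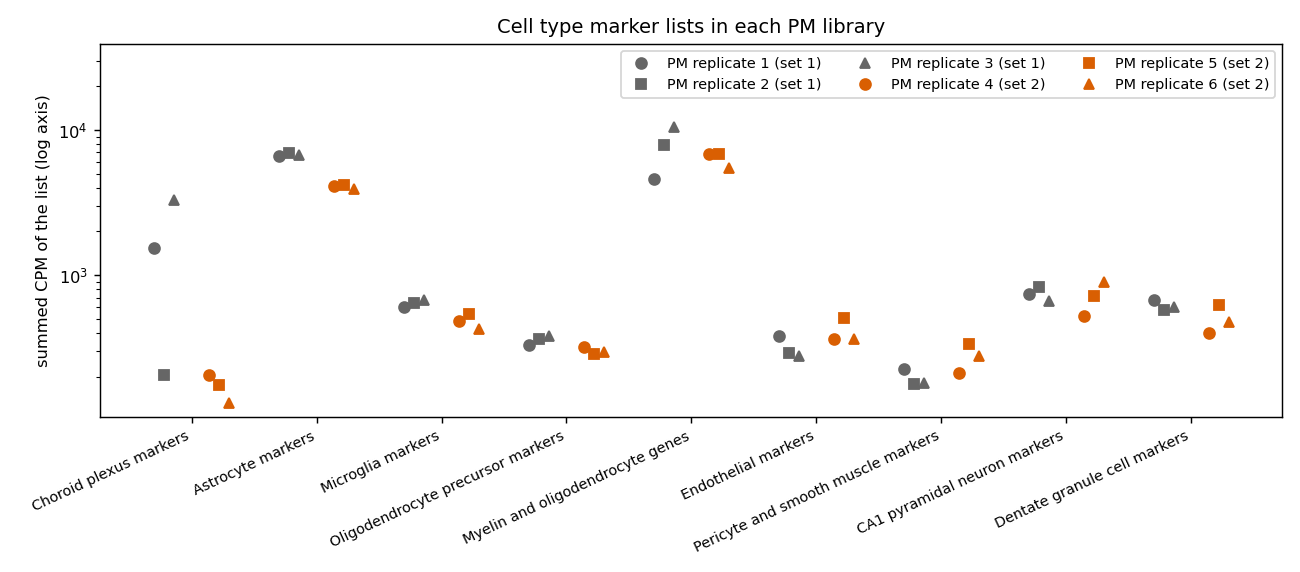
Summed CPM of 9 marker lists in each PM library, on a log axis; grey marks the first set and orange the second. Choroid plexus markers are high in PM 1 (1550 CPM) and PM 3 (3294 CPM) alone, while astrocyte markers separate the sets at 6567 CPM or more against 4158 CPM or less.

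Hippocampal neuron markers were present in all libraries and mostly did not pass. Over all tested genes 21.9% were higher and 20.8% lower. The CA2 and CA3 list, with 23.1% higher, and the interneuron list, with 21.4% lower, lay near these rates, and the dentate list had 30% lower. Dentate granule cell markers had 3 of 10 lower and 1 higher, with Calb1 at 168, 162 and 174 CPM against 88.0, 105 and 125 CPM (log2 fold change -0.67, SE 0.12, adjusted p = 0.002325) and Stxbp6 at -0.76 (SE 0.15). CA1 pyramidal markers had 2 of 10 lower and 0 higher, Ndst4 at -0.97 (SE 0.27) and Man1a at -0.55 (SE 0.16), a share below the background; 4 were lower without PM 3 and PM 6. Without PM 2 neither was called (adjusted p = 0.0824 and 0.0923). CA2 and CA3 markers had 3 of 13 higher and 0 lower, among them Ptpn5 at 94.0, 88.7 and 79.9 against 131, 131 and 133 CPM (0.59, SE 0.09, adjusted p = 0.0009408) and Grik4 at 0.75 (SE 0.19), with 1 higher with the trend removed, without PM 3 and PM 6 or without PM 1 and PM 3. With the trend removed neither was called (adjusted p = 0.0575 and 0.0609). Interneuron markers had 3 of 14 lower and 1 higher, with Gad2, an enzyme of GABA synthesis, at 94.8, 113 and 104 against 70.1, 53.7 and 74.7 CPM (-0.65, SE 0.13, adjusted p = 0.003093) and the neuropeptide Npy at 0.41 (SE 0.13), which was not called without PM 4, without PM 5, without PM 6 or without PM 1 and PM 3. Fewer interneuron genes, 1, were lower when scaled by total counts or without any 1 of PM 2 to PM 5, and 4 were higher when scaled by total counts. Genes of neurogenesis had 4 of 11 lower and 1 higher, with Igfbpl1 at -1.49 (SE 0.37) and Sox2 at -0.43 (SE 0.09), and 1 lower when scaled by total counts, where Sox2 was not called (adjusted p = 0.0674). Of 3 tested hormone genes of the hypothalamus and pituitary, Trh was higher at 0.664 to 1.44 against 0.121 to 0.238 CPM (2.69, SE 0.53, adjusted p = 0.003003), and Pomc was at -0.92 (adjusted p = 0.0823). Lists for tissue around the hippocampus were small. Of 10 thalamic and habenular genes, 2 were higher (20%) and 0 lower. For cortical layer genes, 1 of 11 was higher (9.09%) and 3 lower (27.3%), and for striatal genes 1 of 10 was higher (10%) and 0 lower. Over all tested genes the shares were 21.9% higher and 20.8% lower, and lists this small cannot show whether neighbouring tissue differed.

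Among single genes with no overlap between sets, the largest rises outside these classes were low in the first set. Such genes could pass the filter on low counts and the mean of 1 CPM through the second set alone, so this is in part built in. Wfikkn1, for example, had 3, 2 and 3 counts in PM 1 to PM 3, so the size of such rises is uncertain. Tbrg3 went from 0.604, 0.238 and 0.216 to 2.65, 3.90 and 8.12 CPM (log2 fold change 3.72, SE 0.54, adjusted p = 0.0007136). Muc6, a secreted mucin, went from 2.05, 0.772 and 0.793 to 9.81, 9.16 and 16.9 CPM (3.27, SE 0.38, adjusted p = 0.0002591). Wfikkn1, an inhibitor of growth factors of the TGF-beta family, went from 0.181, 0.119 and 0.216 to 2.29, 2.16 and 2.47 CPM (3.70, SE 0.39, adjusted p = 0.0001377). Gm10471, AW549542, 1700020D05Rik, Gm6588 and Gm6525 rose by 3.20 to 3.70. AW549542 was at 0.216 to 0.705 CPM in vehicle, below the 2.88 to 5.05 CPM of the second PM set. The largest falls were smaller. Itgb8, an integrin subunit that activates TGF-beta, was at 15.1, 13.2 and 9.52 against 2.65, 1.88 and 3.71 CPM (-2.22, SE 0.26, adjusted p = 0.0002192). Fabp7, a fatty acid binding protein of radial glia and astrocytes, was at 51.7, 79.3 and 84.8 against 27.1, 17.7 and 28.6 CPM (-1.56, SE 0.22, adjusted p = 0.0006135), with vehicle at 12.1 to 17.1 CPM. Klhl1 (-2.0), E030003E18Rik (-1.82), Gm17750 (-1.77), Mlf1 (-1.77), Gprin3 (-1.64), Plcxd3 (-1.61), Gpr52 (-1.56) and Cenpf (-1.56) completed the 15 largest falls with the genes given above. Gpr52 lost its call without PM 2, without PM 5 or without PM 3 and PM 6.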

How the data were processed

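Counts per gene symbol were used as the authors deposited them, 1 file per library (raw counts). HTSeq 0.9.1, STAR (version unstated), Trimmomatic 0.36, FastQC 0.11.9, Picard 2.9.2 and SAMtools 1.9 are named, per the submitters' processing notes, with builds mm10 and hg19; a strand setting is not among them. The extraction text describes rRNA depletion and the molecule field polyA RNA, per the labels. The 5 HTSeq summary rows stayed out of library sizes and tests; their no-feature share is given in the report.

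The 6 PM libraries were fitted alone with edgeR 4.0.16 in R 4.3.3 (filterByExpr with a minimum count of 10, TMM, robust quasi-likelihood test, two-sided, Benjamini-Hochberg over all tested genes, threshold 0.05). Vehicle sets and the difference between PM and vehicle came from 1 joint fit of 11 libraries in 4 groups. The SE was obtained by dividing a log2 fold change by its root F statistic. CPM of vehicle libraries is on the joint scale, from which the PM scale differs by a factor of 0.981 to 1.05. A count of 0 allows up to 3 counts, 0.178 to 0.265 CPM by PM library, for counting error only. No 2 libraries of a group agreed within sampling noise (lowest chi-square per degree of freedom 2.06). On simulated counts the PM fit found 36% of 1.5-fold and 73% of 2-fold changes (100 genes per size, 14231 genes, 12 false calls).

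Gene lists (66 fixed, 6 added after the data were seen) and members were chosen with earlier results of these data known, and are described by counts and medians without a test. Named genes are the 15 largest rises and falls among called genes whose sets do not overlap and whose mean CPM reaches 1, for each list described its 2 lowest p-values (the rule allowed up to 4; 2 such genes are not reported here), the NMDA subunits, and Xist and Y-linked genes; 14 more, Dio3 and the sense partners of opposite-strand rows were chosen after their values were seen. Alternatives were DESeq2 1.42.0, other scalings and filters, removal of the length and GC trend, a joint fit, a replicate block and leaving out libraries. Lengths and GC content came from GENCODE M21 on GRCm38, the assembly of mm10.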

Additional observations from a re-analysis of the deposited data

Results flagged for a closer look

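The change from the first to the second set was compared between PM and vehicle libraries by the difference term of the joint edgeR fit of 11 libraries, at an adjusted p under 0.05. The change was more positive in PM than in vehicle for 2157 genes and more negative for 2694. The vehicle sets also differed throughout in Xist and the Y-linked genes, which cannot be told apart from set in this term. Of 128 named genes, 97 had a called difference, 49 more positive in PM and 48 more negative. Over all tested genes the share with a called difference was 30.9%. Most named genes were picked by their PM values, which the difference term reuses, so their larger share is in part built in. Each value below is that difference in log2 fold change, PM minus vehicle. All comparisons share the same 5 vehicle libraries. Groups of 3 libraries were not tested for single outlying samples.

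Among genes named as largest rises and not given with a list below, the differences were Ppp2r2cos (4.42), AW549542 (4.06), Wfikkn1 (3.92), Prkag2os1 (3.84), Tbrg3 (3.66), 1700020D05Rik (3.65), Zfhx2os (3.47) and Gm6525 (3.44). The same group held Nrg3os (3.40), Gm10471 (3.26), Gm6588 (3.19) and Muc6 (3.17). Among genes named as largest falls and not given with a list below, the differences were E030003E18Rik (-1.45), Plcxd3 (-1.60), Gprin3 (-1.89), Gpr52 (-1.95), Fabp7 (-1.99), Gm17750 (-2.04), Cenpf (-2.13) and Rn45s (-2.33). The same group held Klhl1 (-2.42), Itgb8 (-2.54) and Col8a2 (-4.18). Among genes named after their values were seen, the differences were Mir3070b (7.26), Grin1os (3.27), Mir341 (3.18), Rtl1 (2.87), Mir9-1 (2.73), Meg3 (2.33), Npas4 (2.09) and Mir1188 (2.00). The same group held Mir6236 (-7.11). For RNase P, RNase MRP and other structural RNAs they were Rmrp (3.81) and Rpph1 (3.23). MicroRNA precursor rows gave Mir3072 (3.31) and Mir7220 (2.86). Collagen chain genes had Col7a1 (3.20) and Col16a1 (2.00). For axonemal dynein heavy chains they were Dnah17 (2.64) and Dnah9 (0.91). Nuclear long non-coding RNAs gave Malat1 (2.55) and Mirg (2.02). Chromatin regulators of neurodevelopment had Kmt2d (2.16) and Crebbp (1.22). For voltage-gated sodium and calcium channel alpha subunits they were Cacna1h (1.91) and Cacna1a (1.5). Kelch-like genes gave Klhl17 (1.62) and Klhl9 (-0.92). Translation initiation and elongation factors had Eif4ebp3 (1.51) and Eif5a2 (-1.35). For interferon-stimulated genes they were Stat2 (1.49) and Irf9 (1.03). Nucleoporins gave Nup210 (1.40) and Nup188 (1.06). Glucocorticoid response genes had Per1 (1.35) and Nr3c1 (-1.05). For NMDA receptor subunits they were Grin1 (0.95) and Grin2c (0.62). CA2 and CA3 pyramidal neuron markers gave Grik4 (0.94) and Ptpn5 (0.53). Myelin and oligodendrocyte genes had Myrf (0.76) and Ugt8a (-1.06). For mitochondrial ribosomal protein genes they were Mrpl38 (0.55) and Mrps14 (-0.86). Glycolytic enzymes gave Aldoc (-0.43) and Pgk1 (-0.68). Endoplasmic reticulum stress genes had Manf (-0.61) and Hspa5 (-0.99). For nuclear oxidative phosphorylation subunits they were Ndufa9 (-0.62) and Sdha (-0.76). ADP-ribosylation factor-like genes gave Arl1 (-0.63) and Arl5a (-0.95). Oligodendrocyte precursor markers had Gpr17 (-0.68) and Pdgfra (-0.85). For proteasome subunits they were Psmb7 (-0.70) and Psma5 (-0.95). Replication-dependent histone genes gave Hist3h2a (-0.74) and Hist2h2be (-0.84). Dentate granule cell markers had Stxbp6 (-0.75) and Calb1 (-0.90). For microglia markers it was -0.92 in Fcrls. GABA-A receptor subunits gave Gabrg1 (-1.24). Astrocyte markers had Slc1a2 (-0.93) and Aqp4 (-1.19). For NRF2 targets and oxidative stress genes they were Prdx1 (-1.01) and Slc7a11 (-1.26). Cytosolic ribosomal protein genes gave Rps3 (-1.34) and Rpl22l1 (-1.35). Meningeal fibroblast and collagen genes had Ogn (-1.58) and Lum (-1.62). For endothelial markers it was 0.99 in Esam. Pericyte and smooth muscle markers gave Pdgfrb (0.81). Neurogenesis and immature neuron genes had Sox2 (-0.55). For interneuron markers it was -0.72 in Gad2. CA1 pyramidal neuron markers gave Ndst4 (-1.07). Heat shock proteins and chaperonins had Cct4 (-1.23). For choroid plexus markers it was -5.65 in Folr1. For the rows Mir3070b and Mir6236 at least 1 vehicle library had 0 counts, so their fitted values depend on the prior count and are no bound.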

How the results depend on the processing

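Over 16 alternatives of the PM comparison, no named gene changed sign with a call; of 2035 gene values 85 lost the call and 27 gained one, and 86 of 128 named genes never changed call. Counts of genes higher stayed within 1.5 times the main 3218. Counts lower were 1289 when scaled by total counts alone, 1767 without PM 2 and 1972 without PM 3 and PM 6. The last and the fit without PM 1 and PM 3 were chosen after seeing the data. The fit without PM 1 and PM 3 leaves PM 2 alone in the first set. Leaving out 1 library gave 2425 to 3698 higher and 1767 to 3423 lower. The share of calls that were higher was 51.4%, 77.2% with total counts and 38.7% with the trend removed; 4711 of 6264 calls were also made in the same direction with the trend removed, and 4 in the opposite one. Between vehicle sets, the fit on those libraries alone gave 3 higher and 7 lower, against 0 in the joint fit. For the difference from vehicle, leaving out 1 library gave 1353 to 2658 positive and 1448 to 3324 negative, the lowest (1353 and 1448) without vehicle replicate 5, and 56.3% positive without vehicle replicate 2 against 44.5%. The cause of these shifts was not tested. DESeq2 was not run for the vehicle sets. Exact permutation over 3 against 3 libraries cannot go below p = 0.1. On simulated counts with 200 genes changed, 36% of 1.5-fold changes were recovered in the PM fit of 14231 genes. The data had 6264 calls, so that rate does not describe this comparison, though smaller changes can be missed.

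The replicate numbers are shared between PM and vehicle libraries, not between the PM sets. With the replicate number as a block, the difference from vehicle was called for 1749 positive and 2000 negative genes. Deviations of same-numbered libraries had correlations of -0.028, -0.041, -0.102, -0.146 and -0.099. These were not compared with differently numbered libraries, so they cannot show whether the numbers pair the samples.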
